A study of Homo sapiens with 16 samples.

Results

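ATF4 and the transcription factor circuit around it were followed through the treatment as 8 genes chosen by name: ATF4, ATF3, ATF5, DDIT3, CEBPB, CEBPG, NUPR1 and TRIB3. They are 8 of the 35106 gene rows in the count table, and all 8 passed the filter on low counts in every comparison. The 8 genes and the gene lists used below were chosen with earlier results of these data known. RNA was sequenced from MDA-MB-231, a triple-negative breast cancer line with mesenchymal traits, and from SKBR3, a breast cancer line with an amplified ERBB2 (HER2) gene. MitoQ carries a ubiquinone, an electron carrier of the respiratory chain, on a lipophilic triphenylphosphonium group whose charge draws it into mitochondria. The groups were MDA-MB-231 with 500 nM MitoQ for 48 h (n = 5), MDA-MB-231 control (n = 5), SKBR3 with 500 nM MitoQ for 48 h (n = 3) and SKBR3 control (n = 3). MDA-MB-231 was at passage 25 and SKBR3 at passage 10, and the effects of line and of passage cannot be told apart. The sources used here do not say what the control cells received or whether replicates came from separate cultures. The p-values then measure only the spread between these libraries, which may be technical.

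ATF4 is a basic leucine zipper (bZIP) protein, a class of factors that bind DNA as dimers. Its mRNA is translated preferentially when the initiation factor eIF2 alpha is phosphorylated, by way of short upstream reading frames, so that the protein can change with little change in mRNA. Mitochondrial stress reaches eIF2 alpha through the protease OMA1, its substrate DELE1 and the kinase HRI (EIF2AK1). ATF4 pairs with C/EBP proteins, CEBPG and CEBPB among them, on composite C/EBP-ATF elements and switches on genes of amino acid synthesis and transport. DDIT3 (CHOP), ATF3 and ATF5 are bZIP factors further along the same route, and the mRNA of DDIT3 and ATF5, like that of ATF4, is under translational control. NUPR1 is a small stress-induced chromatin protein, and TRIB3 is a pseudokinase that binds ATF4 and holds back its activity.

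Of the 8 genes, 7 had a start site in the RefSeq promoter table (GRCh38.p14, windows of 300 bases from 250 before to 50 after the start), with 16 windows in all. NUPR1 was not matched. Each window was searched on both strands for 5 sets of letters: the C/EBP-ATF composite element TGATGNAA, the cAMP response element TGACGTCA, the AP-1 element TGANTCA, the C/EBP palindrome TTGCGCAA, and the endoplasmic reticulum stress element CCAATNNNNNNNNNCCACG. The composite element was found in 2 of the 16 windows, those of ATF3 and CEBPG, and in 3.62% of all 35116 promoters. The AP-1 element was found in 3 windows, of ATF5 and DDIT3, and in 7.71% of all promoters. The DDIT3 windows that hold it overlap and share the same match, at -241 and -238. Counted by gene, the AP-1 element was in 2 of 7 members, against 9.37% of all genes. The composite element was in 2 of 7, against 4.46%. The other 3 sets, found in 1.85%, 0.151% and 0.0769% of all promoters in the order cAMP response, C/EBP palindrome and stress element, were in none of the 16. No window of these genes held more than 1 of the 5 sets. A match is a description of the letters, not of a bound site. A window without a match says nothing of sequence outside it or of elements with other letters. The stretches that hold the matches are shown because they are the only matches among the 16 windows, once for each gene, with the motif in capitals and positions counted from the start site; ATF3 lies on the plus strand at chr1:212565176-212565263 (motif at -191), CEBPG on the plus strand at chr19:33374031-33374112 (-42), ATF5 on the plus strand at chr19:49928678-49928764 (-188) and DDIT3 on the minus strand at chr12:57520709-57520764 (-241).
ATF3: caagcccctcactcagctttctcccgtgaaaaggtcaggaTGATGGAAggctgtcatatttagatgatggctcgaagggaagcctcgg
CEBPG: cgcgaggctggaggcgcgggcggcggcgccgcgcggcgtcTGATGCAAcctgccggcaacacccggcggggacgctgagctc
ATF5: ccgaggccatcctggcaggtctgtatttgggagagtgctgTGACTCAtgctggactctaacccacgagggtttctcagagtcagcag
DDIT3: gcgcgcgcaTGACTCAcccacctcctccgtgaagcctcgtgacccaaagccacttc

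The total of estimated counts per library ranged from 14723152 to 29294865, and the 8 genes had from 71 estimated counts (DDIT3, SKBR3 control) to 12265 (ATF4, MDA-MB-231 MitoQ) in a library. The SKBR3 columns are named after the other line in part, yet they held the markers of SKBR3, with ERBB2 at a mean of 5327 CPM in SKBR3 controls and 54.2 CPM in MDA-MB-231 controls. Of 10 markers of SKBR3, 8 were higher and 1 lower in SKBR3 controls. The lower one was GATA3, at 6.42 CPM in SKBR3 controls and 12.001 CPM in MDA-MB-231 controls. All 8 markers of MDA-MB-231 were lower in SKBR3 controls, and VIM, a mesenchymal marker, averaged 0.179 CPM in SKBR3 controls and 3409 CPM in MDA-MB-231 controls. CDH1, the SKBR3 marker that was not called, was at 2.76 CPM in SKBR3 controls and 2.57 CPM in MDA-MB-231 controls. On the first principal component SKBR3 control 3 lay at -7.19, between the other SKBR3 controls (-20.1 and -19.2) and the MitoQ libraries (12.7 to 17.9). MDA-MB-231 MitoQ 2 stood apart on the second component. Results of the 8 genes that changed without these libraries are given beside them.

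MitoQ raised 7 of the 8 genes in MDA-MB-231. NUPR1 and TRIB3 moved most, at 9.77-fold and 8.97-fold, CEBPG, DDIT3, CEBPB and ATF3 lay between 3.35-fold and 2.24-fold, and the mRNA of ATF4 itself was 1.78-fold higher. ATF5 fell, and was the only one of the 8 to do so. For each of the 8 the MitoQ and control libraries did not overlap, which was so for 44.1% of all genes tested. Over all 15304 genes tested, 29.9% were called higher and 27.6% lower, so that a call by itself was common in this line. The median log2 fold change of the 8 genes was 1.54, against 0.012 over all genes tested. Values are normalised CPM (counts scaled to a common library size), scaled with TMM over all 16 libraries, and a call is an adjusted p under 0.05 by edgeR's quasi-likelihood test with Benjamini-Hochberg adjustment over all genes tested. Fewer cells of a kind and less RNA per cell cannot be told apart in such bulk libraries.

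**Figure D1:**
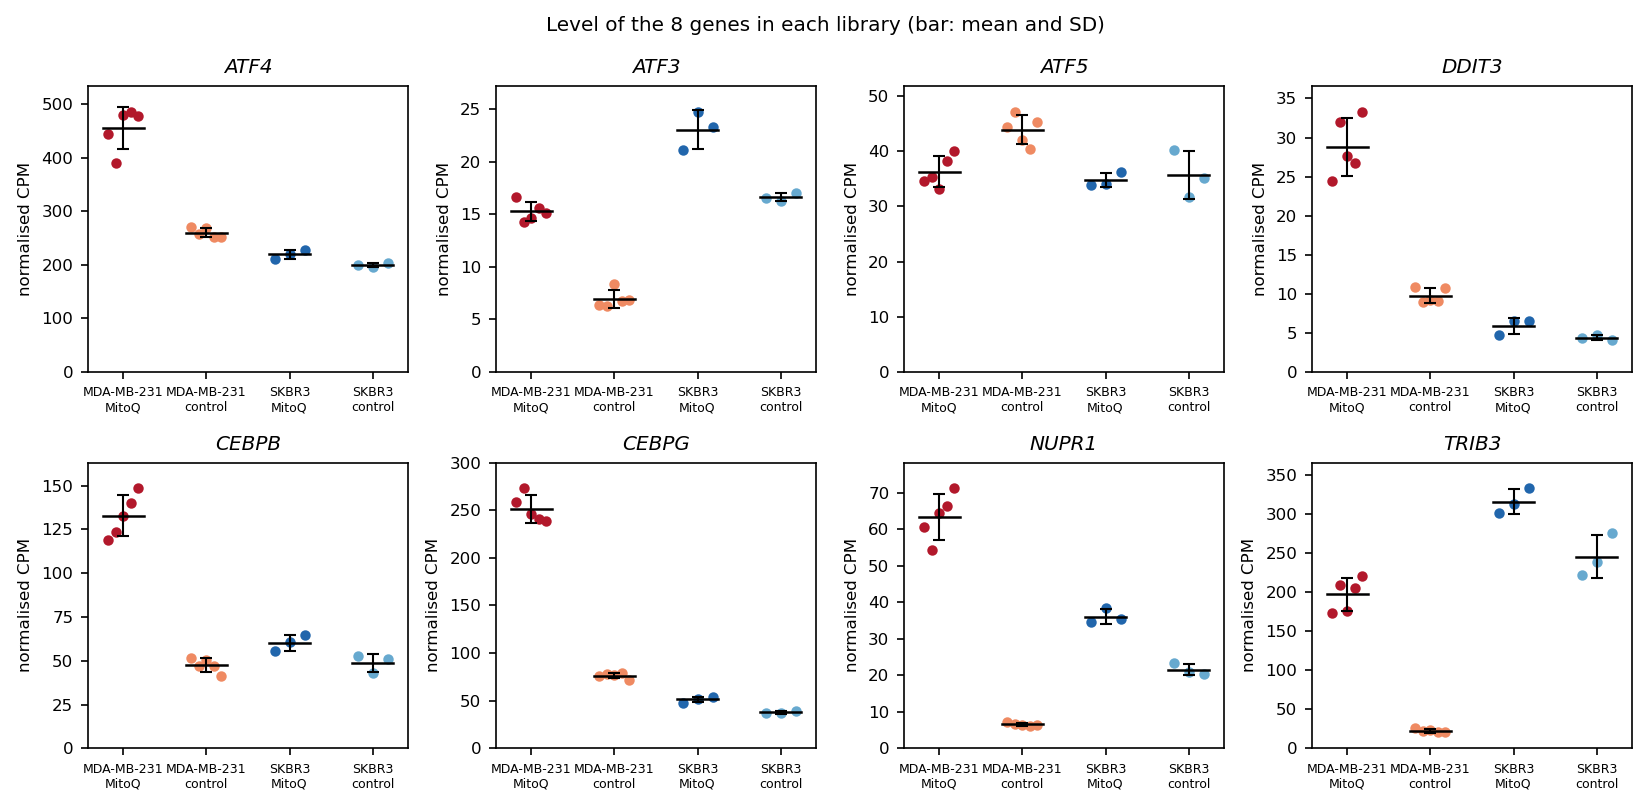
Normalised CPM (y axis, from 0, a scale of its own for each gene) of the 8 genes in the 16 libraries, by line and treatment; points are libraries, the bar is the mean and the whisker the SD (n = 5, 5, 3 and 3). In MDA-MB-231 the MitoQ points lie above all control points for 7 genes and below them for ATF5; in SKBR3 the steps are smaller, and TRIB3 and ATF3 are already high in the controls.

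ATF4, the factor at the head of the circuit, had 445, 391, 481, 486 and 477 CPM in the 5 MitoQ libraries of MDA-MB-231, against 270, 258, 268, 252 and 253 CPM in the 5 controls. The lowest MitoQ library, replicate 2, was the one that stood apart. The log2 fold change was 0.83 ± 0.054 (SE; adjusted p = 1.66e-10), and 0.89 without that library. In the order of rises ATF4 stood at 1020 of 15304 genes, behind the other 6 members that rose. ATF4 lies at chr22:39519695-39522685 on the plus strand of GRCh38. Of its stretches of 31 bases, 29.7% also occur in transcripts of other genes, chiefly the processed pseudogene ATF4P3. The 3 ATF4 pseudogene rows together held at most 9 counts in a library, against at least 2934 for ATF4.

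CEBPG, a C/EBP protein that lacks an activation domain and serves as a dimer partner of ATF4, had 259, 273, 246, 240 and 239 CPM in MitoQ libraries, against 75.4, 78.3, 76.9, 78.8 and 71.9 CPM in controls. The MitoQ values lay far above every control, and the log2 fold change was 1.74 ± 0.050 (adjusted p = 1.30e-15). CEBPB, an activator of the same family, had 119, 124, 133, 140 and 148 CPM in MitoQ libraries, against 51.6, 47.3, 50.3, 47.2 and 41.1 CPM in controls. Its log2 fold change was 1.505 ± 0.066 (adjusted p = 7.69e-13), again with no overlap. CEBPG lies at chr19:33373330-33382686 on the plus strand, and CEBPB is a gene of a single exon at chr20:50190734-50192689 on the plus strand.

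DDIT3 encodes CHOP, a C/EBP-related factor tied to cell death under prolonged stress. It had 24.5, 32.0, 27.6, 26.7 and 33.3 CPM in MitoQ libraries, against 10.8, 8.91, 9.20, 9.12 and 10.8 CPM in controls, a log2 fold change of 1.58 ± 0.088 (adjusted p = 2.14e-11). All 5 MitoQ libraries lay above all controls. DDIT3 lies at chr12:57516588-57521737 on the minus strand and overlaps MARS, which encodes the methionyl-tRNA synthetase, on the other strand. The sources used here do not say whether counting used strand. MARS averaged 356.9 ± 13.5 CPM in MitoQ libraries and 178.2 ± 10.5 CPM in controls (SD, n = 5 each), a log2 fold change of 1.02 ± 0.048 (adjusted p = 1.45e-12), and its part in the DDIT3 counts was not tested. AC022506.1, a row on the same strand that shares 5.43% of the 31-base stretches of DDIT3, held at most 10 counts in a library.

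ATF3, a bZIP factor induced by many stresses, was the least abundant of the 8 per kilobase of exon in MDA-MB-231 with MitoQ. It had 16.7, 14.3, 14.6, 15.6 and 15.1 CPM in MitoQ libraries, against 6.33, 6.30, 8.38, 6.75 and 6.84 CPM in controls. Control 3 lay above the other controls but well under the MitoQ range. The log2 fold change was 1.16 ± 0.086 (adjusted p = 1.16e-09), and 1.24 without control 3. ATF3 lies at chr1:212565334-212620777 on the plus strand and shares no 31-base stretch with another gene.

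ATF5, a bZIP factor linked to the mitochondrial unfolded protein response, went the other way. It had 34.7, 35.4, 33.2, 38.3 and 40.1 CPM in MitoQ libraries, against 44.4, 47.1, 42.0, 40.5 and 45.3 CPM in controls. The groups came close, the highest MitoQ library at 40.1 CPM and the lowest control at 40.5 CPM, but did not overlap. The log2 fold change was -0.25 ± 0.060 (adjusted p = 0.00146), which is 1.19-fold lower. ATF5 lies at chr19:49928702-49933935 on the plus strand and overlaps NUP62, a nuclear pore gene on the other strand. NUP62 averaged 132.8 ± 8.30 CPM in MitoQ libraries and 164.7 ± 8.27 CPM in controls (SD, n = 5 each), a log2 fold change of -0.29 ± 0.050 (adjusted p = 6.42e-05). Its part in the ATF5 counts was not tested.

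The non-bZIP members rose most. NUPR1 had 60.6, 54.2, 64.5, 66.4 and 71.2 CPM in MitoQ libraries, against 7.21, 6.61, 6.47, 6.11 and 6.48 CPM in controls, a log2 fold change of 3.29 ± 0.075 (adjusted p = 4.69e-17). TRIB3 had 173, 210, 176, 206 and 220 CPM in MitoQ libraries, against 25.5, 22.1, 23.1, 20.4 and 20.4 CPM in controls, a log2 fold change of 3.17 ± 0.079 (adjusted p = 2.05e-15). Both stood apart from their controls by many times the spread within a group, and ranked 37 and 42 of 15304 genes in the order of rises. NUPR1 lies at chr16:28532708-28539174 on the minus strand and TRIB3 at chr20:362835-397559 on the plus strand. Of the 31-base stretches of NUPR1, 11.9% also occur in transcripts of other genes. Of their relatives, TRIB1, a pseudokinase of the same family, rose 2.24-fold (adjusted p = 2.94e-10) and TRIB2 fell by 0.18 on the log2 scale (adjusted p = 0.00774), a call lost with plain library totals (adjusted p = 0.0597). NUPR2, at 0.502 CPM in MitoQ libraries and 0.492 CPM in controls, had a log2 fold change of 0.072 ± 0.33 (adjusted p = 0.872).

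In SKBR3 the same 500 nM for 48 h raised 7 of the 8 genes as well, by much less. NUPR1 again led, at 1.66-fold, followed by ATF3, CEBPG, DDIT3, TRIB3 and CEBPB between 1.37-fold and 1.21-fold, and ATF4 was 1.08-fold higher. ATF5 did not pass the test. Among all 15026 genes tested in SKBR3, 13.8% were called higher and 14.1% lower. The median log2 fold change of the 8 genes was 0.38, against -0.00064 over all genes. MitoQ and control libraries did not overlap for 6 of the 8 genes, the exceptions being ATF5 and DDIT3. All 6 were higher with MitoQ, and 21.3% of all genes tested were higher with no overlap.

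NUPR1 had 34.5, 38.4 and 35.4 CPM in the 3 MitoQ libraries of SKBR3, against 23.2, 21.0 and 20.4 CPM in the 3 controls, a log2 fold change of 0.73 ± 0.070 (adjusted p = 7.25e-06). It stood at 342 of 15026 genes in the order of rises. TRIB3 had 302, 313 and 333 CPM in MitoQ libraries, against 222, 239 and 276 CPM in controls, a log2 fold change of 0.34 ± 0.066 (adjusted p = 0.00421). Its highest control was SKBR3 control 3, the library nearest to the MitoQ group on the first principal component, and without it the log2 fold change was 0.44 ± 0.046 (adjusted p = 7.96e-07). CEBPG had 47.9, 51.9 and 53.9 CPM in MitoQ libraries, against 36.7, 37.3 and 38.9 CPM in controls, a log2 fold change of 0.42 ± 0.054 (adjusted p = 7.08e-05). CEBPB had 55.5, 60.7 and 64.7 CPM in MitoQ libraries, against 52.4, 42.8 and 51.1 CPM in controls, a log2 fold change of 0.28 ± 0.068 (adjusted p = 0.00862). The CEBPB groups were close, with 55.5 CPM as the lowest MitoQ value and 52.4 CPM as the highest control.

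ATF3 had 21.1, 24.7 and 23.3 CPM in MitoQ libraries of SKBR3, against 16.6, 16.2 and 17.0 CPM in controls, a log2 fold change of 0.45 ± 0.073 (adjusted p = 4.38e-04). The 3 MitoQ libraries all lay above the controls. ATF4 had 210, 219 and 229 CPM in MitoQ libraries, against 199, 195 and 203 CPM in controls, a log2 fold change of 0.12 ± 0.036 (adjusted p = 0.0279). The groups did not overlap, but the step was small, and the ATF4 call was lost without any of 4 libraries: control 1 (adjusted p = 0.0602), control 2 (0.0545), MitoQ 2 (0.0689) or MitoQ 3 (0.113). DDIT3 had 4.73, 6.49 and 6.47 CPM in MitoQ libraries, against 4.39, 4.73 and 4.02 CPM in controls, a log2 fold change of 0.42 ± 0.15 (adjusted p = 0.0463). Its lowest MitoQ library lay level with its highest control. The DDIT3 call was lost without any of 5 libraries, at an adjusted p of 0.0911 without control 1, 0.0576 without control 2, 0.119 without control 3, 0.194 without MitoQ 2 and 0.137 without MitoQ 3, and with DESeq2 (adjusted p = 0.0894).

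ATF5 had 33.9, 34.1 and 36.3 CPM in MitoQ libraries of SKBR3, against 40.3, 31.6 and 35.2 CPM in controls. The controls spanned the MitoQ range, and the log2 fold change was -0.064 ± 0.073 (adjusted p = 0.575), with a 95% interval of -0.22 to 0.093. NUP62 rose in this line (log2 fold change 0.20 ± 0.045, adjusted p = 0.00426), as did MARS (0.20 ± 0.045, adjusted p = 0.00473). In the SKBR3 libraries the summed level of the 8 markers of MDA-MB-231 was 41.6 to 47.9 CPM with MitoQ and 21.2 to 23.4 CPM in controls, and that of 8 leukocyte markers 9.40 to 13.4 CPM with MitoQ and 6.61 to 7.53 CPM in controls. The rise of the first sum lay mainly in CD44, at 37.6 CPM with MitoQ and 16.9 CPM in SKBR3 controls, while VIM was at 0.401 CPM with MitoQ and 0.179 CPM in SKBR3 controls, and AXL, LOX, MSN and ZEB1 had lower means with MitoQ. CD68 held most of the leukocyte sum in both lines, at 8.74 CPM with MitoQ and 5.69 CPM in controls of SKBR3, and 35.4 CPM with MitoQ and 42.8 CPM in controls of MDA-MB-231, where the other 7 were each under 1 CPM. PTPRC (CD45), the defining leukocyte marker, averaged 0.149 CPM with MitoQ and 0.0565 CPM in SKBR3 controls. In MDA-MB-231 the leukocyte markers summed to 30.4 to 40.9 CPM with MitoQ and 41.4 to 48.6 CPM in controls. The part of these markers in the results was not tested.

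**Figure D2:**
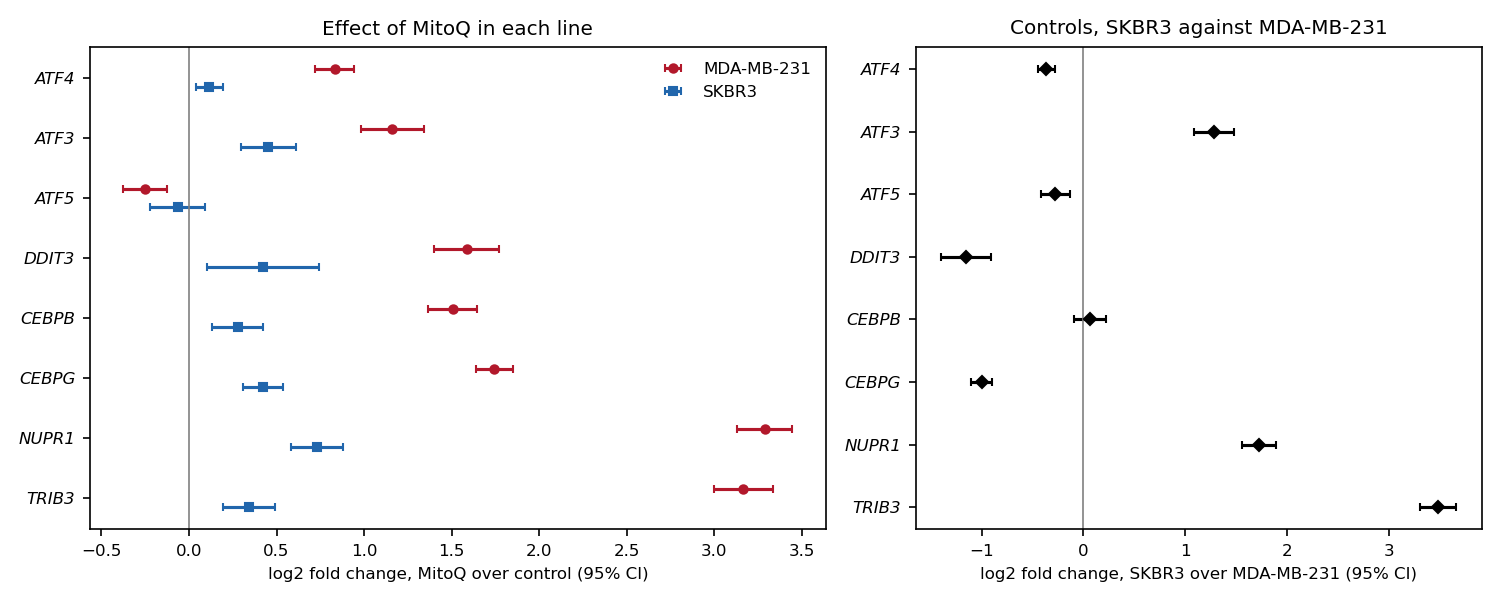
Left, log2 fold change of MitoQ over control for each gene in MDA-MB-231 (circles) and SKBR3 (squares); right, log2 fold change of SKBR3 controls over MDA-MB-231 controls (diamonds); whiskers are 95% intervals from the edgeR fit. For 7 genes the circle lies right of the square, for TRIB3 at 3.17 against 0.34, and the right panel shows TRIB3, NUPR1 and ATF3 higher and ATF4, ATF5, DDIT3 and CEBPG lower in SKBR3 controls.

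The difference between the effects was tested as an interaction over all 16 libraries, the SKBR3 effect minus the MDA-MB-231 effect. It was negative and called for 7 of the 8 genes, where 14.9% of 17094 genes were called more negative in SKBR3 and 19.1% more positive. Of all called interactions, 56.1% were more positive in SKBR3, and 41.6% with plain library totals in place of TMM. TRIB3 differed most, at -2.78 ± 0.13 (adjusted p = 4.71e-12), with NUPR1 next at -2.52 ± 0.12 (adjusted p = 3.85e-14). Among the bZIP factors the difference was -1.28 ± 0.077 for CEBPG (adjusted p = 6.19e-12), -1.18 ± 0.12 for CEBPB (adjusted p = 5.71e-08) and -1.11 ± 0.18 for DDIT3 (adjusted p = 4.09e-05). It was smaller for ATF4, at -0.67 ± 0.081 (adjusted p = 6.04e-07), and for ATF3, at -0.67 ± 0.12 (adjusted p = 1.57e-04). For ATF5 it was 0.23 ± 0.10 (adjusted p = 0.0940), with a 95% interval of 0.015 to 0.44. That difference passed the threshold when MDA-MB-231 MitoQ 5 was left out (adjusted p = 0.0349), and when SKBR3 control 1 was left out (adjusted p = 0.0216).

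The lines also began from different levels. Between controls, 3 of the 8 genes were higher and 4 lower in SKBR3 than in MDA-MB-231, where 42% of 16398 genes were called higher and 44.4% lower. TRIB3 averaged 245.5 ± 28.0 CPM in SKBR3 controls (n = 3) and 22.3 ± 2.15 CPM in MDA-MB-231 controls (SD, n = 5), an 11.2-fold difference (log2 3.48 ± 0.081, adjusted p = 3.96e-13). NUPR1 averaged 21.5 ± 1.52 CPM in SKBR3 controls and 6.58 ± 0.403 CPM in MDA-MB-231 controls, 3.31-fold higher in SKBR3 (adjusted p = 1.22e-14). ATF3 averaged 16.6 ± 0.387 CPM in SKBR3 controls and 6.92 ± 0.853 CPM in MDA-MB-231 controls, 2.43-fold higher in SKBR3 (adjusted p = 3.37e-11). TRIB3 and NUPR1, high in SKBR3 controls, were also the genes that rose most in MDA-MB-231. ATF3, the other gene higher in SKBR3 controls, rose 2.24-fold in MDA-MB-231, less than CEBPG, DDIT3 and CEBPB. Both comparisons divide by the MDA-MB-231 controls, so a low level there raises both ratios, and no link between them was tested.

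ATF4 was lower in SKBR3 controls, at 199.4 ± 4.03 CPM against 260.1 ± 8.60 CPM in MDA-MB-231 controls (log2 -0.37 ± 0.039, adjusted p = 1.70e-08). CEBPG (log2 -0.9995 ± 0.049, adjusted p = 2.80e-14), DDIT3 (-1.15 ± 0.12, adjusted p = 7.71e-09) and ATF5 (-0.28 ± 0.069, adjusted p = 9.36e-04) were lower as well. CEBPB averaged 48.8 ± 5.21 CPM in SKBR3 controls and 47.5 ± 4.05 CPM in MDA-MB-231 controls, a log2 difference of 0.063 ± 0.074 (adjusted p = 0.430) with a 95% interval of -0.093 to 0.22.

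Set in order over the 4 groups, ATF4, CEBPG, DDIT3 and CEBPB were highest in MDA-MB-231 with MitoQ. For ATF4, DDIT3 and CEBPG the order was MDA-MB-231 MitoQ, MDA-MB-231 control, SKBR3 MitoQ and SKBR3 control, although the SKBR3 groups of DDIT3 were not separated. For CEBPB the SKBR3 MitoQ group came next, above the controls of both lines, which overlapped. NUPR1 ran from MDA-MB-231 MitoQ through SKBR3 MitoQ and SKBR3 control to MDA-MB-231 control, with no overlap between neighbours. TRIB3 and ATF3 were highest in SKBR3 with MitoQ, followed by SKBR3 control, MDA-MB-231 MitoQ and MDA-MB-231 control. For TRIB3 the lowest SKBR3 control (222 CPM) lay just above the highest MDA-MB-231 MitoQ library (220 CPM). For ATF3 the SKBR3 controls (16.2 to 17.0 CPM) overlapped the MDA-MB-231 MitoQ libraries (14.3 to 16.7 CPM). ATF5 spanned a narrow range, with the MDA-MB-231 controls at the top and the other 3 groups overlapping.

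Levels between genes were compared per kilobase of annotated exon. On that scale ATF4 was the most abundant of the 8 in MDA-MB-231, at 181.4 ± 15.8 CPM per kilobase with MitoQ and 103.5 ± 3.42 in controls. In MDA-MB-231 with MitoQ, CEBPB (67.9 CPM per kilobase), TRIB3 (57.4) and CEBPG (57.0) followed, with DDIT3 at 22.0, ATF5 at 12.3 and ATF3 at 3.78. In SKBR3, TRIB3 had 92.0 ± 4.55 CPM per kilobase with MitoQ and 71.5 ± 8.15 in controls, where ATF4 had 87.3 ± 3.65 with MitoQ and 79.3 ± 1.60 in controls. These levels depend on the gene length used, and other lengths were tried after the data were seen. With the longest transcript (2499 bases) in place of the exon union (3434 bases) TRIB3 had 78.8 CPM per kilobase in MDA-MB-231 with MitoQ, above CEBPB, and with the median coding transcript 151.4. With that length TRIB3 in SKBR3 stood at 242.8 with MitoQ and 188.7 in controls, and ATF4 at 114.9 with MitoQ and 104.4 in controls. ATF4 stayed highest of the 8 in MDA-MB-231, and ATF3 lowest there with MitoQ, under all 3 lengths. NUPR1, at 11.2 CPM per kilobase of exon in MDA-MB-231 with MitoQ, has annotated transcripts of 550 to 5491 bases.

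As a share of the summed level per kilobase of exon union of 53 bZIP genes, a sum chosen after the data were seen and given with no test, ATF4 held 16.2% ± 0.81 in MDA-MB-231 with MitoQ and 12.8% ± 0.34 in controls, and 13.2% ± 0.021 with MitoQ and 12.7% ± 0.13 in controls of SKBR3. It ranked at place 2 in all 4 groups, behind FOSL1, an AP-1 factor, in MDA-MB-231 and behind XBP1, a factor of the endoplasmic reticulum stress response, in SKBR3. In MDA-MB-231, CEBPB held 6.07% with MitoQ and 3.0003% in controls, CEBPG 5.13% with MitoQ and 2.14% in controls, and DDIT3 1.98% with MitoQ and 0.924% in controls. ATF5 held 1.101% with MitoQ and 1.84% in controls. Its own level was 12.3 CPM per kilobase with MitoQ and 14.9 in controls. The summed level was higher with MitoQ in this line, so a share does not give the change of a gene. In SKBR3 the CEBPB share was 4.65% with MitoQ and 4.004% in controls, and that of CEBPG 1.75% with MitoQ and 1.37% in controls.

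**Figure D3:**
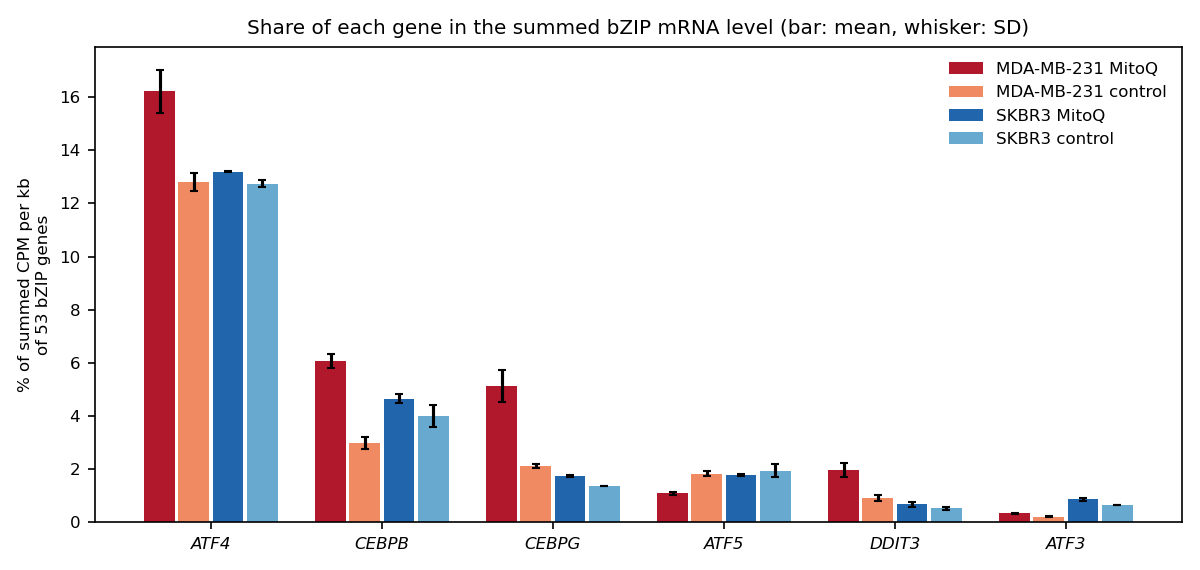
Share (y axis, percent, from 0) that each of the 6 bZIP members held of the summed CPM per kilobase of 53 bZIP genes, by line and treatment; bars are means and whiskers the SD (n = 5, 5, 3 and 3). With MitoQ the shares of CEBPB (6.07% against 3.0003% in controls) and CEBPG (5.13% against 2.14% in controls) in MDA-MB-231 stand well above the controls, while the 4 ATF4 bars lie between 12.7% and 16.2%.

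By root mean square distance between the 4 group means of log2(CPM + 0.5), each centred on its own mean, DDIT3 and CEBPG were the closest pair among the 8, at 0.0746, and DDIT3 and TRIB3 the farthest, at 1.93. No other protein-coding gene among 12056 lay as near to DDIT3 or CEBPG as they lay to each other; the nearest were HCN2 to DDIT3, at 0.109, and LAMA1 to CEBPG, at 0.0942. For ATF4 the nearest genes were CIRBP, TMEM91 and PRKCE (0.016 to 0.033), and for ATF5 NUP205, PTS and CHEK1 (0.012 to 0.014). Nearest to CEBPB were AC010327.1, LY75 and GARS, to NUPR1 CYP1B1, RPS6KA2 and SLC1A4, and to TRIB3 KRT81, UNC5B and RHOB. These distances rest on 4 group means and are a description only.

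Most genes on a list of known ATF4 targets, chosen with earlier results of these data known, rose with MitoQ. In MDA-MB-231 all 28 tested genes of a list of 30 were called higher, with a median log2 fold change of 1.65. In SKBR3 21 of 27 were called higher and 0 lower (1 lower with mitochondrial genes left out), with a median of 0.47. Of all genes tested, 29.9% were called higher in MDA-MB-231 and 13.8% in SKBR3, with medians of 0.012 and -0.00064. ASNS, the asparagine synthetase, averaged 446.8 ± 9.78 CPM with MitoQ and 59.0 ± 3.29 CPM in controls of MDA-MB-231 (7.68-fold, adjusted p = 6.25e-19), and 94.5 ± 5.60 CPM with MitoQ and 41.6 ± 1.61 CPM in controls of SKBR3 (2.24-fold, adjusted p = 5.50e-09). PSAT1, an enzyme of serine synthesis, rose 4.22-fold in MDA-MB-231 (adjusted p = 1.39e-17) and 1.87-fold in SKBR3 (adjusted p = 1.26e-07). CTH, the last enzyme of the route from homocysteine to cysteine, rose 8.17-fold in MDA-MB-231 (adjusted p = 1.70e-17), whereas its log2 fold change in SKBR3 was -0.12 (adjusted p = 0.486). PHGDH, the first enzyme of serine synthesis, rose 3.29-fold in SKBR3 (adjusted p = 4.51e-09) and 2.94-fold in MDA-MB-231 (adjusted p = 4.98e-15). PCK2, the mitochondrial phosphoenolpyruvate carboxykinase, rose 2.29-fold in SKBR3 (adjusted p = 7.00e-08) and 5.45-fold in MDA-MB-231 (adjusted p = 2.08e-16).

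The interaction for these targets was called more negative in SKBR3 for 25 of 30 targets and more positive for 0, and without SKBR3 control 3 for 23 and 1. Among all 17094 genes tested, 14.9% were called more negative in SKBR3 and 19.1% more positive. The 5 targets that did not pass were PHGDH, CBS, SLC7A1, FGF21 and STC2. For PHGDH the difference was 0.20 ± 0.092 (adjusted p = 0.0957). Between controls, 10 of 28 targets were higher and 18 lower in SKBR3. Most genes were called in that comparison, with 42% of 16398 higher and 44.4% lower. Nothing particular to the targets is read from the number called.

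**Figure D4:**
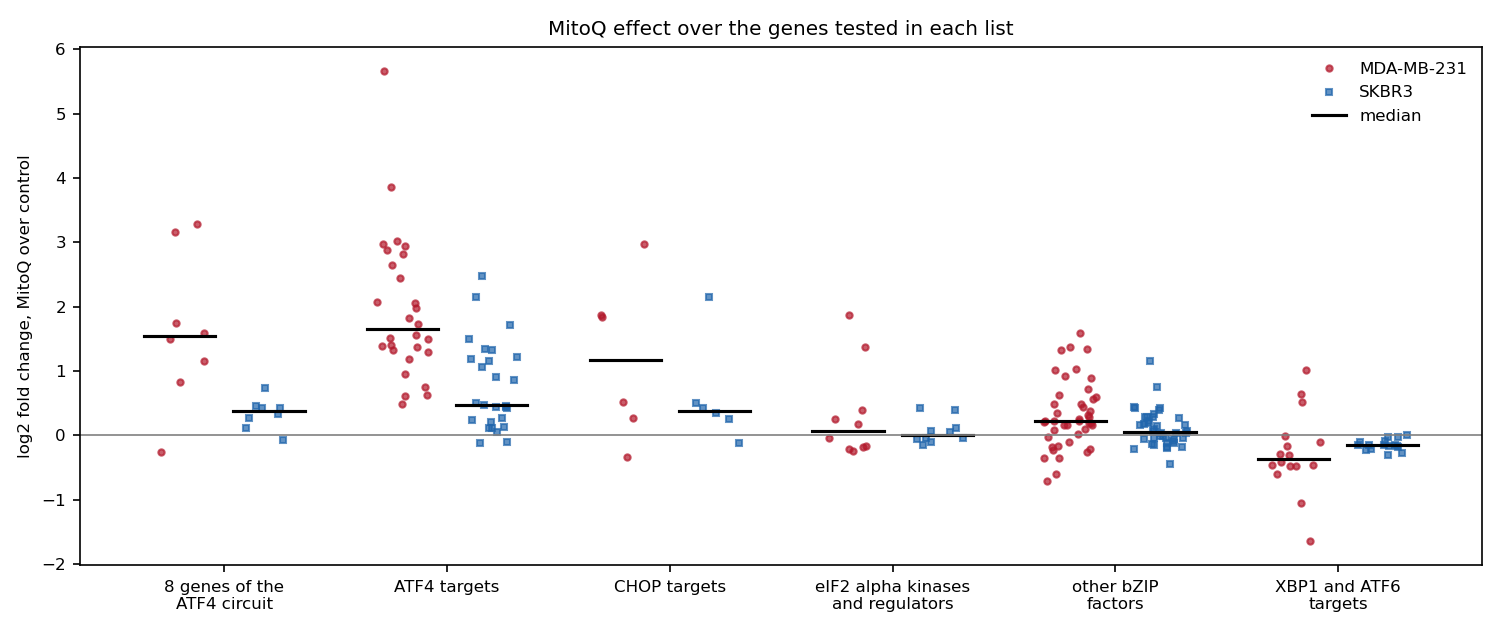
Log2 fold change of MitoQ over control (y axis) for every tested gene of 6 lists in MDA-MB-231 (circles) and SKBR3 (squares); black bars are medians. The 8 genes and the ATF4 targets have medians of 1.54 and 1.65 in MDA-MB-231 and 0.38 and 0.47 in SKBR3, and the XBP1 and ATF6 targets lie mostly below 0.

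Of 6 genes known as targets of CHOP, 5 rose and 1 fell in MDA-MB-231, and 5 rose in SKBR3. Among all genes tested, 29.9% were called higher and 27.6% lower in MDA-MB-231, and 13.8% higher and 14.1% lower in SKBR3. CHAC1, which degrades glutathione and is shared with the ATF4 list, rose 7.90-fold in MDA-MB-231 (adjusted p = 2.36e-16) and 4.46-fold in SKBR3 (adjusted p = 6.58e-06). PPP1R15A (GADD34), which brings the phosphatase to eIF2 alpha, rose 3.67-fold in MDA-MB-231 (adjusted p = 1.01e-11) and 1.35-fold in SKBR3 (adjusted p = 5.54e-04). BBC3 (PUMA), a pro-apoptotic protein, rose 3.59-fold in MDA-MB-231 (adjusted p = 2.69e-09). The gene that fell was ERO1A, an oxidase of the endoplasmic reticulum, at a log2 fold change of -0.33 ± 0.061 in MDA-MB-231 (adjusted p = 1.44e-04), while it rose in SKBR3 (0.25 ± 0.051, adjusted p = 0.00214). The interaction for ERO1A was 0.62 ± 0.093 (adjusted p = 1.17e-05).

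Of 10 genes listed as eIF2 alpha kinases and regulators, 5 rose and 4 fell in MDA-MB-231 (2 fell with plain library totals). In SKBR3, 3 rose and 1 fell. The list also holds PPP1R15A, one of the CHOP targets above, and EIF4EBP1, so it is not confined to genes upstream of ATF4. Over all genes 29.9% were called higher and 27.6% lower in MDA-MB-231, and 13.8% higher and 14.1% lower in SKBR3, and nothing particular to this list is read from its counts. Beside PPP1R15A, EIF4EBP1, an inhibitor of cap-dependent translation, rose 2.58-fold in MDA-MB-231 (adjusted p = 1.04e-11) and 1.31-fold in SKBR3 (adjusted p = 0.00144). PPP1R15B, the constitutive partner of the phosphatase, rose 1.32-fold in MDA-MB-231 (adjusted p = 1.08e-05). EIF2AK1, the kinase HRI, averaged 78.1 ± 3.73 CPM with MitoQ and 94.2 ± 3.22 CPM in controls of MDA-MB-231 (log2 -0.25 ± 0.045, adjusted p = 1.11e-04), and its log2 fold change in SKBR3 was -0.036 ± 0.038 (adjusted p = 0.532). EIF2S1, which encodes eIF2 alpha, fell by 0.15 on the log2 scale in SKBR3 (adjusted p = 0.00518). Phosphorylation and protein were not measured in these libraries.

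Among 47 other bZIP factors, 23 of 43 tested rose and 8 fell in MDA-MB-231, with a median log2 fold change of 0.23, and 8 of 40 rose and 5 fell in SKBR3, with a median of 0.053. The SKBR3 counts lay near the 13.8% higher and 14.1% lower of all genes, and in MDA-MB-231 29.9% of all genes were called higher and 27.6% lower. With plain library totals 27 rather than 23 rose and 5 rather than 8 fell in MDA-MB-231. XBP1 rose 2.59-fold (adjusted p = 6.39e-15), NFE2L1, a regulator of proteasome genes, 2.02-fold (adjusted p = 9.17e-13) and JDP2, a Jun dimerization partner, 2.53-fold (adjusted p = 3.21e-12) in MDA-MB-231. In SKBR3 JUN rose 1.68-fold (adjusted p = 1.43e-05) and FOSL2 1.27-fold (adjusted p = 1.67e-04), both of the AP-1 family, and ATF2 fell by 0.44 on the log2 scale (adjusted p = 4.45e-04).

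The targets of XBP1 and ATF6, the factors of the other arms of the endoplasmic reticulum stress response, were called lower more often than higher. Of 16 targets tested, 3 rose, 11 fell and 2 were not called in MDA-MB-231, with a median log2 fold change of -0.36. In SKBR3 0 rose, 10 fell and 6 were not called, with a median of -0.16. The shares of all genes called lower and higher were 27.6% and 29.9% in MDA-MB-231 and 14.1% and 13.8% in SKBR3. The calreticulin gene CALR averaged 568.2 ± 54.5 CPM with MitoQ and 1195 ± 41.0 CPM in controls of MDA-MB-231 (log2 -1.05 ± 0.058, adjusted p = 1.47e-11). SDF2L1, a partner of the chaperone BiP, fell by 1.65 on the log2 scale (adjusted p = 1.07e-09). HERPUD1, a protein of endoplasmic reticulum degradation, was among the 3 that rose, at 2.02-fold (adjusted p = 1.31e-12), and so was SEL1L, a degradation factor, at 1.44-fold (adjusted p = 6.05e-08). In SKBR3 the smallest p-values were those of HSP90B1 (log2 -0.31 ± 0.037, adjusted p = 4.84e-05), SEL1L (-0.21 ± 0.036, adjusted p = 5.48e-04) and SEC24D (-0.23 ± 0.038, adjusted p = 6.63e-04), a chaperone, the same degradation factor and a coat protein of export vesicles. The interaction for SEL1L was -0.69 ± 0.071 (adjusted p = 5.10e-08).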

How the data were processed

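The values were estimated counts per gene in 16 libraries of MDA-MB-231 and SKBR3 cells, deposited by the authors as whole numbers. Salmon, edgeR and GRCh38 are named per the submitters' processing notes, without versions, roles, rounding or use of strand. Of 35106 rows, 35003 matched GENCODE release 29 by ID. Positions, exon and transcript lengths, and the transcripts compared in stretches of 31 bases, come from that release. The promoter sequences come from RefSeq. Totals per library were 14723152 to 29294865, and the lowest count of the 8 genes was 71 (DDIT3, SKBR3 control).

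Low genes were removed with filterByExpr, libraries scaled by TMM, and tests run in edgeR 4.0.16 under R 4.3.3 (robust quasi-likelihood fit, two-sided F test, no block), adjusted after Benjamini-Hochberg, threshold 0.05; where no other tool is named, an adjusted p is from that test. Each SE was the size of the log2 fold change divided by the root of its F value. Treatment was compared line by line, the difference of effects as the interaction over all 16 libraries, and the lines over the 8 controls. CPM values use 1 TMM scaling over all libraries. The tests were checked on simulated data, where changes were missed more often in SKBR3 than in MDA-MB-231. False calls there exceeded the threshold in all comparisons but the interaction. The check was a single draw with far fewer changed genes than were called in the data, so it cannot give the rate of false calls here. DESeq2 1.42.0, limma 3.58.1 (voom with quality weights), other scalings and filters, a replicate block and leaving out each library were tried as alternatives.

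The 8 genes and the gene lists were chosen with earlier results of these data known. Of each list, the text names the 3 called genes with the smallest p in each line, and the 3 genes nearest to each member in distance, of which 1 set is not reported here; other genes were named after their values were seen. Protein sequences were not used here.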

Additional observations from a re-analysis of the deposited data

Results flagged for a closer look

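ATF3 in MDA-MB-231 control 3, at 8.38 CPM, lay farther from the other 4 controls, at 6.30 to 6.84 CPM, than Dixon's test allows. It was the only such case among 16 sets of 5 libraries tested, 1 for each gene and MDA-MB-231 group, and chance gives about 1 in 20.

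The effect of MitoQ differed between the lines for 7 of the 8 genes by the interaction term, SKBR3 minus MDA-MB-231 on the log2 scale. The differences were -0.67 for ATF4, -0.67 for ATF3, -1.11 for DDIT3, -1.18 for CEBPB, -1.28 for CEBPG, -2.52 for NUPR1 and -2.78 for TRIB3. All 7 stayed past the threshold under each of the 9 other settings and without any single library.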

How the results depend on the processing

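In MDA-MB-231 the 7 rises and the fall of ATF5 were called under all 10 other settings and without any single library, the ATF5 log2 fold change lying between -0.28 and -0.19. In SKBR3 the rises of ATF3, CEBPB, CEBPG, NUPR1 and TRIB3 held without any single library (highest adjusted p 0.0441, CEBPB). The number of the 8 genes called higher there was 5 to 7 over all settings, since ATF4 and DDIT3 were lost under a threshold of 0.01 and in 1 fit over all 16 libraries (adjusted p = 0.157 for ATF4 and 0.0519 for DDIT3), and DDIT3 with DESeq2 (0.0894) and limma voom (0.0507). The genes called in SKBR3, 4202 in all, were 2436 at a threshold of 0.01, 2788 in the fit over all libraries, and 2565 to 4547 with a library left out, the lowest without SKBR3 MitoQ 2. The number of the 8 genes with a more positive effect in SKBR3 was 0 to 1 with a library left out (ATF5).

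The SKBR3 log2 fold change of ATF5 was -0.11 to 0.027 with a library left out, the only positive value (adjusted p = 0.825) being that without SKBR3 control 1. With plain library totals in place of TMM the share of called genes that were higher was 60.5% in MDA-MB-231, against 51.9%, and for the interaction 41.6% were more positive in SKBR3, against 56.1%; the calls of the 8 genes were the same. The counts of the gene lists were repeated after the data were seen, under 3 other scalings and without the library apart in each line. The direction of the medians was kept, but some counts moved. With plain totals 2 in place of 4 eIF2 regulators and 5 in place of 8 other bZIP factors fell in MDA-MB-231. There 27 in place of 23 other bZIP factors rose, and 6 in place of 8 XBP1 and ATF6 targets had a more positive effect in SKBR3. With mitochondrial genes left out, 1 in place of 0 ATF4 targets was called lower in SKBR3. Replicate numbers did not pair the libraries: same-numbered deviations correlated at -0.129 to 0.0340 in MDA-MB-231 and 0.00047 to 0.0969 in SKBR3, and only replicate 3 of each line matched its own number best. With the replicate number as a block, 8363 genes were called in MDA-MB-231 (8805 without), 4758 in SKBR3, 5416 for the interaction (5823 without) and 13916 between the lines (14177 without). Under the block no call of the 8 genes changed, and the CEBPB difference between control lines was -0.010 (adjusted p = 0.875). Depth limits DDIT3 in SKBR3, with 98 to 179 counts in MitoQ libraries and 71 to 111 in controls.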
